A study of Homo sapiens with 40 samples.

Results

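The comparison set 7 libraries of human microglia-like cells (hMGLs) homozygous for SORL1 A528T, an alanine-to-threonine change in the sortilin-related receptor, against 7 libraries of unedited WT cells. These are 14 of the 40 RNA-seq libraries of the study. The members described are the 13424 genes with a level of at least 1 TPM (transcript abundance scaled for gene length and summing to the same total in each library) in at least 7 of the 14 libraries, out of 60504 genes in the table; 12912 of them are autosomal and 429 lie on the X chromosome. All cells derive from H9 (WA09), a widely used line of human embryonic stem cells. The edit was made with CRISPR/Cas9 and a single-stranded repair template, and the labels do not say how many clones stand behind a group. Cells of every group were differentiated alike: blood progenitors collected on day 11 were matured over 28 days in medium holding M-CSF at 25 ng/mL, IL-34 at 100 ng/mL and TGF-beta 1 at 50 ng/mL, and received CD200 and CX3CL1, both at 100 ng/mL, for the final 3 days. A further group, SORL1-KO (7 libraries, labelled a knockout of the same gene; the labels' treatment text names a homozygous SORL1 R744X edit), served as a second reference. The labels number the libraries but do not say whether each is a separate culture, so the p-values reflect variation among these libraries, part of which may be technical.

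SORL1 is a type I membrane receptor of the VPS10 family that binds the amyloid precursor protein and carries it, with the retromer complex, out of endosomes and away from the compartments in which amyloid beta is cut. Coding variants of the gene have been linked to Alzheimer's disease. Microglia, the resident macrophages of the brain, clear debris through phagosomes, endosomes and lysosomes, the compartments this receptor moves between. A missense edit changes the protein and need not change the amount of RNA.

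The edited codon is shown because it is what the groups differ by in design. It lies in exon 11 of 48 of SORL1, on the forward strand of chromosome 11 (GRCh38, codon at 121522975 to 121522977), and the reference sequence of chr11:121522945-121522989 is printed 5′ to 3′ with the alanine codon in capitals.
SORL1 edited codon: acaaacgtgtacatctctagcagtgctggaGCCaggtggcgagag

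Before the results, 3 properties of the libraries matter. Defining genes of microglia and macrophages were high in every library of both groups, among them AIF1 (847 to 1394 TPM) and SPI1 (795 to 937 TPM), while TMEM119, a marker of microglia in the brain, was at 1.34 to 8.74 TPM. A528T library 7 stood apart, with a median correlation of 0.943 with the other libraries of its group against 0.969 to 0.980 for the other 13 libraries. Libraries 5 and 6 had the highest correlation of any pair of their group in both WT (r = 0.987) and A528T (r = 0.988). The margin was small, as the next highest pair was at r = 0.986 in each group. RNA of stromal genes, such as collagens, was present in unequal amounts. For each library a stromal score was formed by averaging log2(TPM + 1) across all 17 listed endothelial and stromal markers, including those not kept. This score was 2.92 ± 1.43 (SD, n = 7, range 0.90 to 4.91) in WT, 1.41 ± 0.42 in A528T and 1.297 ± 0.469 in SORL1-KO. WT libraries 5 and 6 were the highest. In bulk RNA, fewer cells of a type and less RNA per cell cannot be told apart.

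SORL1 RNA did not differ beyond the spread between libraries in edited and unedited cells. It was at 22.1, 41.4 and 60.7 TPM (lowest, median, highest) in A528T and at 18.6, 36.3 and 43.2 TPM in WT, with libraries 5 and 6 the lowest of both groups. The group means were 39.9 ± 13.7 and 33.3 ± 9.74 TPM (SD, n = 7 each), and the log2 difference of 0.23 ± 0.25 (SE) was smaller than the spread between libraries (limma adjusted p = 0.999; exact two-sided permutation p = 0.399). The groups overlapped, and the sign turned to -0.04 without WT libraries 5 and 6. A528T libraries 5 and 6, also the lowest of their group, remained in that fit. With libraries 5 and 6 averaged in each group the difference was 0.24. In SORL1-KO the RNA was at 16.1 ± 3.00 TPM, and the A528T cells had 1.20 ± 0.25 more on the log2 scale (limma adjusted p = 0.025, and up to 0.118 when 1 library was left out).

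Few genes passed the test between the 2 groups. Of the 13424 genes, 6 passed an adjusted p of 0.05 in limma on log2(TPM + 1), which is 0.0447% of those tested: 4 rose (0.0298%), all on the X chromosome, and 2 autosomal genes fell (0.0149%), TBC1D15 and MME. The median log2 difference of all genes was -0.02, and 41.6% of genes were above 0. At an unadjusted p below 0.05 there were 726 genes (5.41%), 294 higher (2.19%) and 432 lower (3.22%). All 7 A528T libraries lay outside the WT range for 23 genes (0.171%), 12 of them higher (0.0894%). The number called rests on single WT libraries: it was 56 without WT library 3, which had the lowest stromal score of the group, 17 without WT library 4, and 3 without WT libraries 5 and 6. Medians by autosome stayed between -0.04 and -0.01, and no run of 50 neighbouring genes had a median beyond -0.09 or 0.05.

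**Figure D1:**
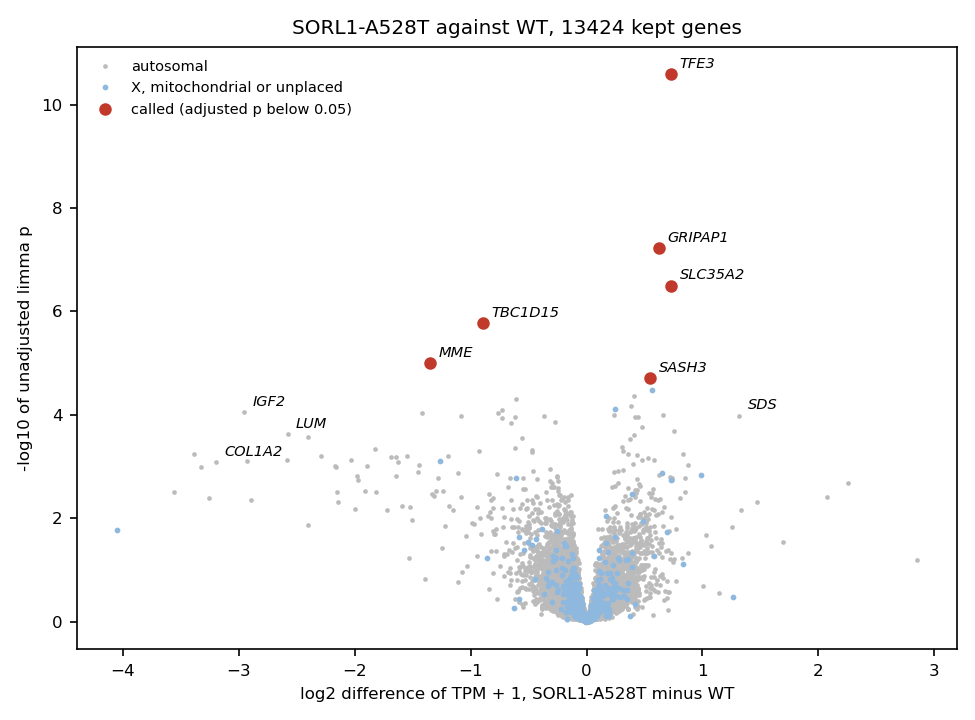
Each point is 1 of the 13424 kept genes; the x axis is the log2 difference of TPM + 1 (SORL1-A528T minus WT) and the y axis the negative log10 of the unadjusted limma p. The 6 called genes are red. The long tail of low points at the left holds the listed stromal markers LUM and COL1A2 as well as IGF2, which did not pass the adjusted threshold.

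TBC1D15, which encodes a GTPase-activating protein that turns off RAB7 on late endosomes and lysosomes, had the lowest adjusted p of the autosomal genes. The gene (ENSG00000121749, chr12:71839707-71927248) was at 9.07, 12.1 and 17.9 TPM (lowest, median, highest) in A528T and at 18.9, 23.3 and 29.1 TPM in WT. Every A528T library was below every WT library, and the nearest values were 17.9 TPM in A528T library 7 and 18.9 TPM in WT library 2. The mean fell from 24.1 ± 3.62 to 12.6 ± 2.68 TPM, a log2 difference of -0.89 ± 0.16 (limma adjusted p = 0.00557). SORL1-KO cells were at 24.2 ± 7.35 TPM, close to the WT mean, and the log2 difference of A528T from them was -0.87 ± 0.16 (limma adjusted p = 0.003). In the other edited groups the gene was at 23.6 ± 5.63 (TREM2-R47H, n = 7), 27.4 ± 6.64 (TREM2-KO, n = 8), 24.0 (CD33-SNP, n = 2) and 25.8 TPM (INPP5D-SNP, n = 2), with 17.0 TPM in TREM2-R47H the lowest single library. The call held when any 1 library was left out (-0.98 to -0.83) and in libraries 1 to 3 alone (-0.93, adjusted p = 0.00863). It was lost with the stromal score as a covariate (-0.70, adjusted p = 0.285), without WT libraries 5 and 6 (-0.79, adjusted p = 0.169) in libraries 4 to 7 alone (-0.86, adjusted p = 0.225) and with libraries 5 and 6 averaged (-0.86, adjusted p = 0.0899). RAB7A itself, the main substrate of this protein, was at 249.96 ± 12.97 TPM in A528T and 271 ± 13.6 in WT (-0.12, adjusted p = 0.688).

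MME encodes neprilysin, a membrane peptidase that degrades amyloid beta. The gene (ENSG00000196549, chr3:155024124-155183729) was near the limit of 1 TPM in A528T, at 0.18, 0.47 and 1.05 TPM, and at 0.78, 2.57 and 10.5 TPM in WT. The groups overlapped at WT library 7, and the 2 highest WT values (10.5 and 4.32 TPM) were those of libraries 6 and 5, which also had the highest stromal scores. The log2 difference of -1.35 ± 0.26 passed the test (limma adjusted p = 0.0269), and this was the only called gene at 2-fold or more on the log2(TPM + 1) scale. SORL1-KO was at 0.52 ± 0.38 TPM, and A528T differed from it by -0.02 ± 0.26 (adjusted p = 1). Low values were not particular to A528T. MME was at 0.35 ± 0.37 (TREM2-KO, n = 8), 0.67 ± 0.45 (TREM2-R47H, n = 7) and 0.46 TPM (CD33-SNP, n = 2). INPP5D-SNP (n = 2) was at 3.62 TPM, near the WT mean of 3.47 TPM. The difference of A528T from WT shrank to -0.64 with the stromal score as a covariate (adjusted p = 0.741). The call was lost in the fit of the 2 groups alone (adjusted p = 0.339) and without WT libraries 5 and 6 (-0.92, adjusted p = 0.345). It was also lost in 8 of the 14 fits that left out 1 library (A528T library 2, 4, 5, 6 or 7, or WT library 1, 5 or 6; -1.36 to -1.08, adjusted p up to 0.108), with pseudocounts of 0.1 and 5 TPM (adjusted p = 0.0694 and 0.069) and over the autosomes alone (0.0646).

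**Figure D2:**
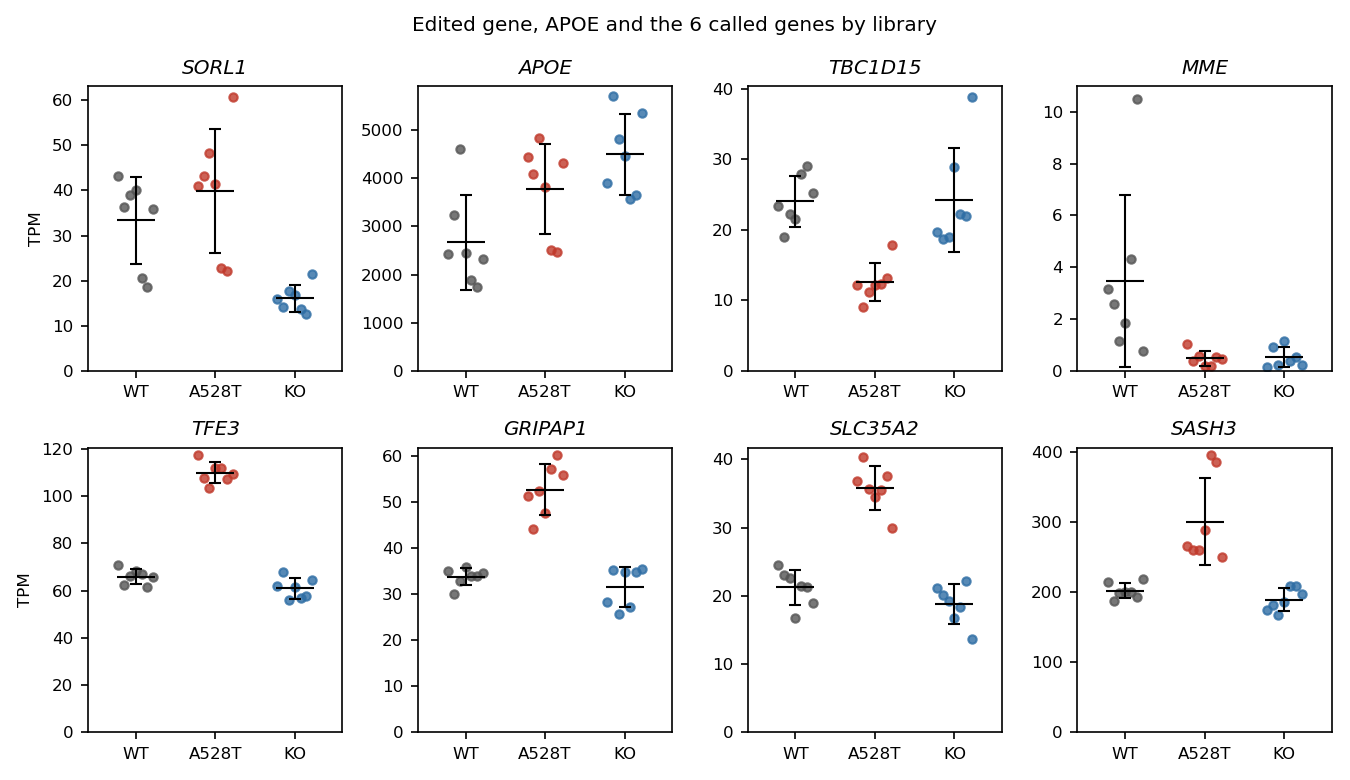
TPM of SORL1, APOE and the 6 called genes in every library of WT, SORL1-A528T and SORL1-KO (7 points a group; black lines are mean and SD, and each y axis starts at 0). TBC1D15 and the 4 X-linked genes of the lower row are separated from WT in all 7 A528T libraries, SORL1 and APOE overlap, and MME is spread over 0.78 to 10.5 TPM in WT.

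Most genes of the lysosome had higher mean values in A528T cells, by small amounts. None on an autosome passed the adjusted test in the main fit, which had no block or library weights. The lysosome list held 43 kept genes (hydrolases, membrane proteins, the proton pump and the transcription factors TFEB and TFE3). In the main fit 1 was called, the X-linked TFE3, and 39 were above 0, against 41.6% of all genes. A block for library number gave 4 called members and library weights gave 2, TFE3 included in both. Same-numbered libraries were not taken to pair. The median log2 difference of the 43 was 0.16. At an unadjusted p below 0.05 there were 11 higher and 0 lower, against 2.19% and 3.22% of all genes. The median and the counts moved with single libraries. Without A528T library 7, 35 were above 0, against 43.4% of all genes, with a median of 0.09. At an unadjusted p below 0.05, 6 were higher, and 693 of all 13424 genes differed either way. Without WT libraries 5 and 6, 33 were above 0, against 44.8% of all genes, with a median of 0.11. At that p 4 were higher, and 426 of all genes differed either way. Without libraries 5 and 6 of both groups, 38 were above 0, against 44.1% of all genes, with a median of 0.14. TFEB, the autosomal relative of TFE3, was among the 4 below 0 over all libraries.

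CTSA, the protective protein that holds neuraminidase and beta-galactosidase together, was the autosomal member with the lowest p. It was at 292, 315 and 383 TPM in A528T and at 189, 256 and 282 TPM in WT, so that the groups did not overlap, and the 2 lowest WT values were those of libraries 5 and 6. The log2 difference was 0.41 ± 0.09 (limma adjusted p = 0.0633), and it was 0.28 with the stromal score as a covariate. CTSA did pass with median-ratio scaling (adjusted p = 0.0412), quantile normalization (0.0137), library weights (0.00752) or the block in all libraries (0.00053). It also passed without A528T library 3 (0.0449), WT library 3 (0.0297) or WT library 4 (0.0386). Outside the list, NEU1, the neuraminidase that CTSA stabilises, was at 97.8 ± 8.28 against 79.1 ± 6.51 TPM (0.30 ± 0.08, adjusted p = 0.166, and 0.00707 with library weights). SLC17A5, which exports the sialic acid that neuraminidase frees, was at 15.7, 18.7 and 22.9 TPM in A528T and at 11.2, 13.05 and 15.25 TPM in WT, again with no overlap (0.48 ± 0.11, adjusted p = 0.0842); it passed with library weights (0.00386) and without WT library 3 (0.0471). In the list, CTSD, a main aspartic protease of the lysosome, was at 2301 ± 342 against 1750 ± 301 TPM (0.40 ± 0.11, adjusted p = 0.205). With the block in all libraries the limma adjusted p was 0.00711 for NEU1, 0.00905 for SLC17A5 and 0.043 for CTSD. For CTSD it was 0.084 when A528T library 7 was also left out. With the block in the 2 groups alone it was 0.0819 to 0.358 for CTSA, NEU1, SLC17A5 and CTSD. CTSK, a cysteine protease, was at 5.98 ± 1.88 against 3.24 ± 1.22 TPM (0.74, adjusted p = 0.269), and ASAH1, acid ceramidase, at 293 ± 91.9 against 208 ± 28.1 TPM, with A528T library 7 alone at 497 TPM. ASAH1 was chosen after its values were seen. Beyond the list, RRAGD, a GTPase that recruits mTORC1 to the lysosome, was at 47.3 ± 5.49 against 35.0 ± 2.83 TPM (0.42 ± 0.10, adjusted p = 0.0633). GNPDA1, an enzyme of glucosamine breakdown, was at 91.2 ± 8.78 against 69.8 ± 8.68 TPM (0.38 ± 0.09, adjusted p = 0.0633). The SORL1-KO means were 296 TPM for CTSA, 2308 for CTSD, 94.3 for NEU1, 19.1 for SLC17A5, 43.0 for RRAGD and 85.3 for GNPDA1, all above the WT means. The differences of A528T from SORL1-KO were -0.02 to 0.14, with SEs of 0.08 to 0.11 (adjusted p = 1).

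**Figure D3:**
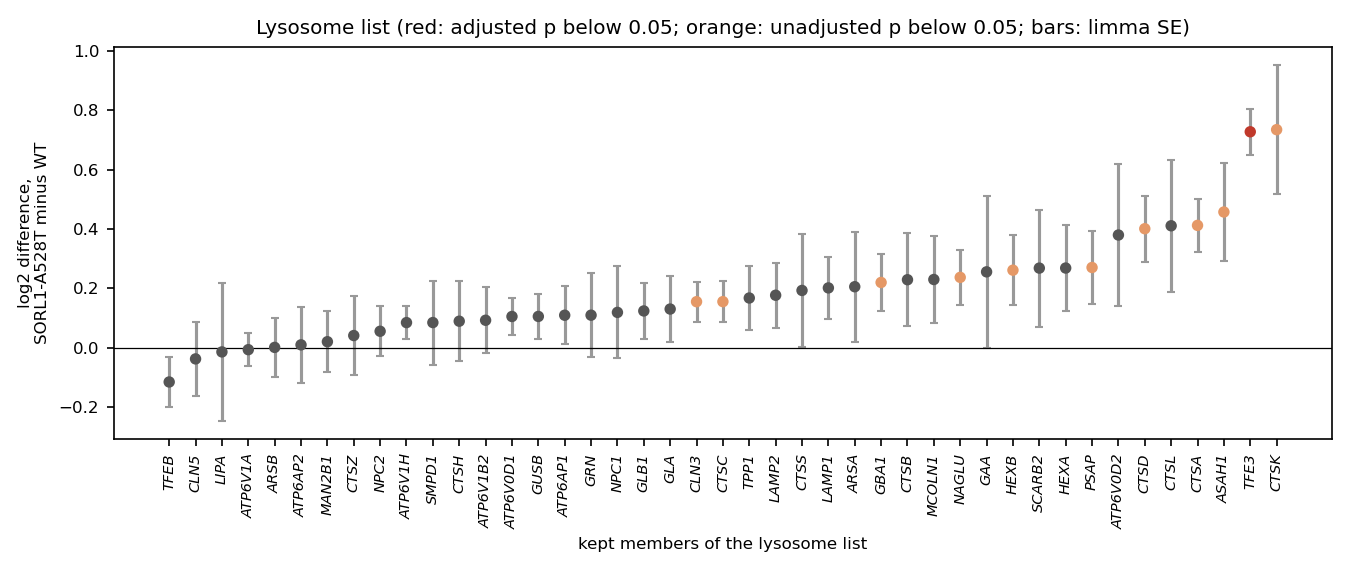
Log2 difference (SORL1-A528T minus WT, limma SE as bars) of the kept members of the lysosome list, ordered by size; red marks the called gene and orange an unadjusted p below 0.05. Of the 43 genes 39 lie above 0, and TFEB is the lowest.

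TFEB and TFE3 bind the CLEAR element, a motif near the start of many lysosomal genes whose core is CACGTG. The core was searched in the 250 bases before the start of each gene in RefSeq (GRCh38.p14; the word is its own reverse complement, so 1 strand covers both). It occurred in 11.4% of the kept genes with an entry (1129 of 9923), in 8 of the 27 kept lysosome genes with an entry (29.6%), and in 4 of 10 named genes with higher values and an entry. A match is a description of these letters, not evidence of binding. The 3 stretches of 30 bases are printed because they belong to lysosomal genes described above that hold the core. SLC17A5, also described above, had an entry without the core. The stretches run 5′ to 3′ on the gene's strand with the core in capitals. CTSA (chr20:45891289-45891318, forward) holds it 42 and 25 bases before the start. CTSD (chr11:1763957-1763986, reverse) holds it 47 bases, and NEU1 (chr6:31862930-31862959, reverse) 126 bases, before the start.
CTSA: ctgtCACGTGgcgccggagttCACGTGact
CTSD: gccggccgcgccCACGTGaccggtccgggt
NEU1: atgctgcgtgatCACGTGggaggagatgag

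The sorting machinery around SORL1 itself showed no called gene. Of 44 kept members of the retromer and endosomal sorting list, 23 were above and 21 below 0, and the median was 0.00, close to that of all genes. At an unadjusted limma p below 0.05, 5 of them were higher and 1 lower, against 2.19% and 3.22% of all genes. WASHC2A, a subunit of the WASH complex that retromer recruits to endosomes, was at 20.7 ± 1.09 TPM in A528T and 17.4 ± 1.31 in WT (0.24 ± 0.06, adjusted p = 0.0633); it has a near-identical paralog, WASHC2C, between which reads may be split. GGA1, a clathrin adaptor that binds the SORL1 tail, was at 47.2 ± 5.43 against 39.5 ± 7.45 TPM (0.26, adjusted p = 0.493), and IGF2R, the mannose 6-phosphate receptor that brings hydrolases to endosomes, at 38.1 ± 4.30 against 31.5 ± 3.82 TPM (0.27, adjusted p = 0.574). SORCS1, a neuronal relative of SORL1 in the VPS10 family, was at 1.57 ± 0.87 against 1.16 ± 0.30 TPM (0.19, adjusted p = 0.999). In the amyloid precursor processing list (23 kept, 17 above 0, median 0.06) MME was the only called gene. APLP1, a homologue of the precursor, was at 0.46, 0.70 and 1.15 TPM in A528T and 1.55, 1.98 and 2.86 TPM in WT, with no overlap but close to the limit of 1 TPM (-0.73 ± 0.16, adjusted p = 0.0633).

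APOE, the lipid carrier named in the title of the series, was at 2468, 4092 and 4830 TPM in A528T and at 1744, 2434 and 4615 TPM in WT. The groups overlapped, and libraries 5 and 6 were the lowest of each. The means were 3783 ± 935 and 2669 ± 982 TPM, a log2 difference of 0.53 ± 0.23 that did not pass (limma adjusted p = 0.748). The exact two-sided permutation p was 0.0455, or 0.0909 adjusted over the 2 genes tested so (the smallest possible was 0.000583). The difference was 0.18 with the stromal score as a covariate and 0.34 without WT libraries 5 and 6. That last fit kept A528T libraries 5 and 6. With libraries 5 and 6 averaged in each group the difference was 0.54. SORL1-KO was at 4494 ± 839 TPM (A528T minus SORL1-KO -0.27 ± 0.23, adjusted p = 1).

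In the lists of microglial state no gene was called. Of 25 kept disease-associated microglia genes, 24 were above 0 and the median was 0.16; GPNMB, a glycoprotein of lipid-laden macrophages, was at 155 ± 29.8 against 105 ± 38.9 TPM (adjusted p = 0.381), and LGALS3, galectin-3, at 35.9 ± 7.81 against 22.9 ± 4.91 TPM (0.63, adjusted p = 0.258). Without WT libraries 5 and 6, 19 of the 25 were above 0 and the median was 0.09. Without libraries 5 and 6 of both groups, 24 of the 25 were above 0 and the median was 0.14. Homeostatic genes (24 kept) had 18 above 0 and a median of 0.07, and 12 above 0 and -0.02 without A528T library 7. In the apolipoprotein and lipid efflux list (22 kept) 18 were above 0, and 11 without that library; its gene of lowest p, CLU, was at 9.22 ± 6.65 against 57.9 ± 68.2 TPM, and moved with the stromal genes (-1.90, and -0.19 with the stromal score as a covariate). The list of TYROBP, ITAM and ITIM signalling had 26 of 36 below 0 and a median of -0.05; the adaptor CARD9 was at 54.9 ± 6.85 against 67.5 ± 7.51 TPM and the phosphatase PTPN6 at 260.5 ± 17.5 against 298 ± 10.0 TPM (adjusted p = 0.381 and 0.54).

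The medians of some lists moved with A528T library 7. All 27 kept genes of cholesterol synthesis and uptake were below 0 (median -0.11), and 12 were above 0 without that library (median -0.01). In it the median of the list was 0.87 below the WT mean on the log2 scale (-0.87), while A528T libraries 5 and 6 were 0.46 and 0.49 above it. Cell cycle genes had 36 of 40 below 0 and a median of -0.18, which was -0.02 without library 7, where the median stood at -1.05. Unfolded protein response genes had 23 of 27 below 0 (median -0.10), and 21 of 27 without library 7 (median -0.06); XBP1, its transcription factor, was at 52.1 ± 7.78 against 63.6 ± 9.39 TPM (adjusted p = 0.791) and HERPUD1, an endoplasmic reticulum degradation factor, at 377 ± 39.9 against 459.6 ± 61.1 TPM (adjusted p = 0.862). Among 45 kept genes of Alzheimer risk loci 26 were above 0, and 20 without library 7; FERMT2, an integrin adaptor, was at 3.796 ± 1.28 against 5.40 ± 2.27 TPM and TNIP1, a brake on NF-kB, at 101 ± 10.7 against 118 ± 11.2 TPM (adjusted p = 0.862 and 0.876). MHC class II genes had 11 of 16 below 0 with a median of -0.08, and 14 of 16 with a median of -0.37 without library 7. That library was 1.20 above the WT mean, and the other 6 A528T libraries were between -0.50 and -0.16. WT library 4 was at -0.80. Without libraries 5 and 6 of both groups, 11 of the 16 MHC class II genes were above 0, with a median of 0.11. Without WT libraries 5 and 6 alone, 8 were above 0, with a median of -0.02. The pathway lists not described had 0 called and medians between -0.07 (immediate early and heat shock genes) and 0.16 (iron handling) over all libraries, and iron handling was at 0.08 without library 7.

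**Figure D4:**
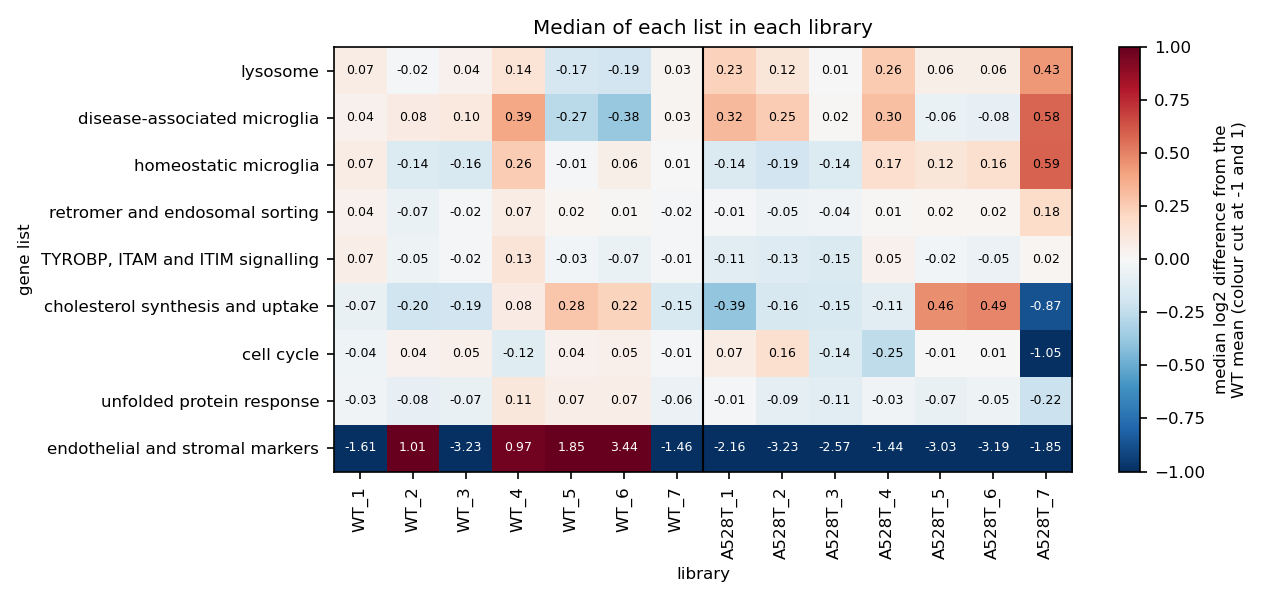
Median log2 difference from the WT mean of 9 gene lists (rows) in each of the 14 libraries (columns, WT left of the line); the printed number is the median, and colour is cut at -1 and 1. A528T library 7 is far from the others of its group for cell cycle (-1.05) and cholesterol genes (-0.87), and WT libraries 5 and 6 are lowest for lysosome genes (-0.17 and -0.19) and highest for stromal markers (1.85 and 3.44).

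The autosomal genes of lowest p that were lower in A528T included LUM, a listed stromal marker. Stromal markers had 9 kept of 17 listed, and 0 were called. Of the kept markers 8 were lower at an unadjusted p below 0.05, against 3.22% of all genes. The median was -2.58. The summed level of the listed markers was 185 to 424 TPM in A528T and 190 to 3272 TPM in WT. The endothelial markers CDH5 and TEK were below 1 TPM in every library, KDR was at 0.00 to 6.98 TPM in WT and at most 0.13 TPM in A528T, and PECAM1 was at 166 to 372 TPM. IGF2, a fetal growth factor, was at 0.13, 0.60 and 1.82 TPM in A528T and 0.13, 9.48 and 158 TPM in WT (-2.95, adjusted p = 0.0633; -0.68 with the stromal score as a covariate). COL1A2, a chain of type I collagen, was at 7.52 ± 6.92 against 174 ± 242 TPM. LUM, PTK7, H19, FBN1, CDH11 and LMCD1 were likewise low in A528T and wide in WT, none called. COL1A2 and LUM are on the stromal marker list, and IGF2, PTK7, H19, FBN1, CDH11 and LMCD1 are not. The part of stromal RNA in these differences was not tested beyond the values with the score as a covariate. The lower genes that follow are not on the marker list either. S100A6 was at 4.05 ± 6.67 against 20.8 ± 14.2 TPM (-2.40, limma adjusted p = 0.119). GPC1 was at 3.21 ± 0.58 against 5.68 ± 2.26 TPM, with no overlap (-0.62, limma adjusted p = 0.167). CDKN2D was at 6.32 ± 1.25 against 9.04 ± 1.12 TPM (-0.47, limma adjusted p = 0.177). SERPINB9, an inhibitor of granzyme B, was at 15.3 ± 2.78 against 23.9 ± 4.20 TPM (-0.62 ± 0.14, adjusted p = 0.0633; -0.64 with the stromal score as a covariate), and SORL1-KO was at 10.8 ± 1.502 TPM. ATP2A3, a calcium pump of the endoplasmic reticulum, was at 45.3 ± 3.59 against 68.1 ± 12.6 TPM (-0.56, adjusted p = 0.12; -0.44 with the stromal score as a covariate). INIP, a subunit of a single-stranded DNA binding complex, was at 22.7 ± 3.41 against 29.4 ± 2.30 TPM (-0.37, adjusted p = 0.0633; -0.31 with that covariate), and CCDC91, a partner of the GGA adaptors, at 21.5 ± 1.13 against 26.2 ± 3.05 TPM (-0.27, adjusted p = 0.0723; -0.20 with that covariate).

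On the higher side, SDS, serine dehydratase, had the largest difference of the named genes, at 29.6, 51.8 and 114 TPM in A528T and 10.8, 19.1 and 38.8 TPM in WT (1.32 ± 0.30, adjusted p = 0.0633). The groups overlapped at WT library 3. SLC38A6, an amino acid transporter, was at 17.5 ± 3.52 against 10.8 ± 2.65 TPM (0.66, adjusted p = 0.0633), and GSDME, a gasdermin that forms membrane pores, at 12.7 ± 2.45 against 7.21 ± 1.95 TPM (0.75, adjusted p = 0.0989). VAT1, HSD17B14, UAP1L1, PHYH and FRRS1 completed the 15 higher autosomal genes of lowest p with a mean of at least 5 TPM, with differences of 0.35 to 0.87. Over the autosomes, 9 genes higher and 11 lower had an adjusted p between 0.05 and 0.1.

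The 4 genes that rose lie on the X chromosome, and 3 of them are neighbours. TFE3, a transcription factor of lysosomal and autophagy genes, rose from 66.0 ± 3.27 to 110 ± 4.41 TPM (0.73 ± 0.08, limma adjusted p = 3.51e-07), with 104 TPM the lowest A528T library and 70.8 TPM the highest WT library. GRIPAP1, a recycling endosome protein, rose by 0.62 (52.8 ± 5.58 against 33.8 ± 1.85 TPM, adjusted p = 0.000395) and SLC35A2, the Golgi UDP-galactose transporter, by 0.73 (35.8 ± 3.21 against 21.2 ± 2.62 TPM, adjusted p = 0.00142). With PIM2, a kinase, and OTUD5, a deubiquitinase, neither of them called, they form 5 consecutive kept genes over 140.3 kb (chrX:48903180-49043486) in which every A528T library was above every WT library. None of the 21 other kept genes within 500 kb of TFE3 was so separated (differences of -0.58 to 0.25). The GRIPAP1 and SLC35A2 calls held when any 1 library was left out. They were lost in libraries 1 to 3 alone (limma adjusted p = 0.173 and 0.0701) and in libraries 4 to 7 alone (0.225 for each). In other groups TFE3 was at 115 ± 16.6 TPM in INPP5D-SNP (n = 2), 88.1 ± 4.74 TPM in TREM2-R47H (n = 7) and 61.0 ± 4.35 TPM in SORL1-KO. It was at 70.01 TPM in TREM2-KO (n = 8) and 70.03 TPM in CD33-SNP (n = 2). The other genes of this run also had higher means than WT in TREM2-R47H and INPP5D-SNP. In that order they were 34.89 and 32.4 TPM for SLC35A2, and 42.71 and 54.25 TPM for GRIPAP1. OTUD5 was at 46.99 and 55.04 TPM (WT 31.95), and PIM2 at 12.81 and 16.1 TPM (WT 7.54). All 5 genes had lower means than these in TREM2-KO, CD33-SNP and SORL1-KO. Higher values in the run were not particular to A528T. SASH3, a lymphoid and myeloid adaptor elsewhere on the X, rose from 202 ± 10.9 to 301 ± 62.4 TPM (0.55 ± 0.11, adjusted p = 0.0443), with libraries 5 and 6 at 396 and 386 TPM. Its call was lost in 7 of the 14 fits that left out 1 library (A528T library 4, 5 or 6, or WT library 1, 2, 5 or 6; adjusted p up to 0.12), with pseudocounts of 0.1 and 5 TPM (0.0539 and 0.0512), with no filter (0.0843), with the stromal score as a covariate (0.128) and in the fit of the 2 groups alone (0.108). In other groups the SASH3 means were 286 (INPP5D-SNP), 246 (CD33-SNP), 206 (TREM2-KO), 190 (SORL1-KO) and 164 TPM (TREM2-R47H). GRIPAP1, SLC35A2, SASH3, PIM2 and OTUD5 were chosen after their values were seen.

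**Figure D5:**
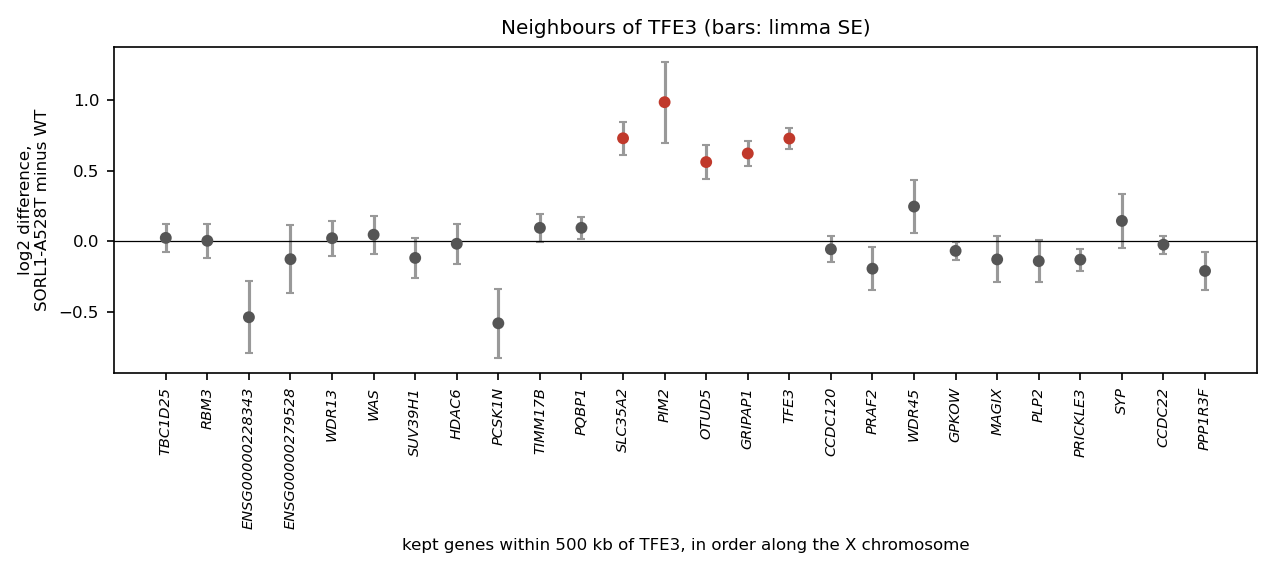
Log2 difference (SORL1-A528T minus WT, limma SE as bars) of the kept genes within 500 kb of TFE3, in their order on the X chromosome. The 5 red genes, SLC35A2 to TFE3, are consecutive and lie at 0.56 to 0.99, and the 21 grey genes lie between -0.58 and 0.25.

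Set against the other line edited at SORL1, 13 of 13424 genes (0.0968%) differed between A528T and SORL1-KO, 9 higher and 4 lower in A528T; 290 (2.16%) were at an unadjusted p below 0.05. The 13 included SORL1 and 5 of the genes called against WT: TFE3 (0.84), GRIPAP1 (0.72), SLC35A2 (0.90), SASH3 (0.65) and TBC1D15 (-0.87). MME did not pass between the 2 lines. The 2 comparisons share the A528T libraries, so these counts are not independent.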

How the data were processed

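Paired 150 bp reads came from 500 ng of RNA of integrity number 9 or more, at a mean of 45.13 M reads per library (39.2 to 64.6 M), per the labels' protocols. The authors deposited TPM values per gene; per the submitters' processing notes the tools were RSEM 1.3.1, STAR 2.7, cutadapt 1.18 and DESeq2, and no genome build is named in the sources read. Columns summed to 999999.15 to 1000000.76, and 94.2% of gene IDs matched a symbol and a GENCODE 29 position (GRCh38). TPM keeps no counts, so the depth behind single values is unknown, and precision comes from the spread between libraries; 13252 to 14086 genes per library reached 1 TPM.

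Groups came from the labels. log2(TPM + 1) of all 40 libraries was fitted with limma 3.58.1 (R 4.3.3; 7 group means, trended and robust variance, no rescaling, no block), and two-sided p-values were corrected over all 13424 kept genes (Benjamini-Hochberg); adjusted p below 0.05 is called a change. The pseudocount understates changes of low genes. Of the kept genes, 144 had an A528T mean and 139 a WT mean under 1 TPM. Exact permutation used all 3432 splits. Named genes were SORL1, APOE, the called autosomal genes with a mean of at least 5 TPM, the autosomal genes of lowest p with such a mean up to 15 each way, and up to 4 genes per list. The 27 pathway and 12 marker lists are described by counts and medians only. The members and lists were chosen with earlier results of these data known. Alternatives covered pseudocount, filter, scaling, fit, block, weights, stromal score and left-out libraries; those added after seeing the data were leaving out WT libraries 5 and 6, leaving out libraries 5 and 6 of both groups (lists only), the block without A528T library 7, and adjustment over autosomes.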

Additional observations from a re-analysis of the deposited data

Results flagged for a closer look

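In 15 of 148 gene and group pairs 1 library lay far from the other 6 of its group, where chance gives about 1 in 20; the number in brackets is its gap to the nearest library as a share of the group's range. A528T library 7 accounted for 8 of them. It was high for VAT1 (0.575), HSD17B14 (0.655), ASAH1 (0.703), CFD (0.668), HLA-B (0.786), PLIN2 (0.585) and CLEC10A (0.705), and low for FGR (0.642). PLIN2, the coat protein of lipid droplets, was at 52.0 TPM there against 15.3 to 25.5 TPM in the other 6 libraries, and HLA-B at 252 against 144 to 162 TPM. In A528T library 3 was low for GNPDA1 (0.612), library 5 low for PTK7 (0.618) and library 4 high for CDH11 (0.822). WT library 4 was high for NEU1 (0.635) and low for HERPUD1 (0.658) and CLEC10A (0.766), a lectin of dendritic cells, at 39.0 against 87.9 to 112 TPM. WT library 6 was high for APLP1 (0.576).

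Of the 13 genes that differed between the A528T and SORL1-KO lines in the limma fit (adjusted p below 0.05), 6 are among those described above: SORL1 by 1.20, TFE3 by 0.84, GRIPAP1 by 0.72, SLC35A2 by 0.90, SASH3 by 0.65 and TBC1D15 by -0.87 (A528T minus SORL1-KO, log2).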

How the results depend on the processing

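The 6 genes called against WT became 21 with quantile normalization (13 higher, 8 lower), 57 with library weights (35, 22), 3 with libraries 5 and 6 averaged (3, 0), 4 in libraries 1 to 3 alone (2, 2), 1 in libraries 4 to 7 alone (1, 0), 4 with the stromal score as a covariate (4, 0), 3 without WT libraries 5 and 6 (3, 0) and 1 when adjusted over autosomal genes alone (0, 1). 1 gene was lower with pseudocounts of 0.1 and 5 TPM, with no filter, with a filter of 5 TPM and in the fit of the 2 groups alone. Leaving out 1 library gave 4 to 56 genes (3 to 16 higher, 1 to 40 lower): 56 without WT library 3, 17 without WT library 4, 11 without A528T library 3 and 10 without WT library 7. Against SORL1-KO, 13 genes became 20 with library weights, 6 in libraries 4 to 7 alone and 7 when adjusted over autosomal genes; leaving out 1 library gave 12 to 15, and the SORL1 call was lost in 5 of 14. Same-numbered libraries of WT and A528T correlated at -0.13 to 0.52, not all over 0.1, so the numbers were not taken to pair them; libraries 3, 4 and 5 correlated best with their own number. With the replicate block 85 genes were called (37 higher, 48 lower), 84 without A528T library 7 (27, 57), with 4 and 3 lysosome genes among them, and 5 in the 2 groups alone; against SORL1-KO the block gave 24, and 98 in the 2 groups alone. SORL1 against WT turned to -0.15 with the stromal score. It turned to -0.0380 without WT libraries 5 and 6, a fit that kept the low A528T libraries 5 and 6. COL4A1 turned to 0.0884 with the stromal score, and FERMT2 to 0.00991 in libraries 1 to 3. The cause was not tested. TFE3 was called under each alternative that tested it; adjustment over autosomes left it out. Depth per value is unknown.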

Other observations

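Type I interferon response genes (42 kept, 0 called) were near 0 over all libraries, with 18 above 0 and a median of -0.02. The 2 WT libraries 5 and 6 were the highest of the 14, with list medians 0.56 and 0.84 above the WT mean, and the other 5 WT libraries were between -0.42 and -0.15. Without those 2 libraries, 40 of the 42 genes were above 0 in A528T, with a median of 0.23, against 44.8% of all kept genes. A528T libraries 5 and 6 were also the highest of their group (0.27 and 0.32) and remain in that comparison; without libraries 5 and 6 of both groups, 31 of the 42 were above 0 with a median of 0.09, against 44.1% of all kept genes.

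Nuclear genes of oxidative phosphorylation (45 kept, 0 called) had 21 above 0 and a median of 0.00. In A528T library 7 their median was -0.41 against the WT mean, and the other 6 A528T libraries were between 0.02 and 0.16. Without library 7, 39 of the 45 were above 0 with a median of 0.07. The 13 genes of the mitochondrial genome had 12 above 0 with and without that library (medians 0.11 and 0.11).

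Cytokine, chemokine and NF-kB target genes (31 kept, 0 called) had 13 above 0. IL1A was at 5.33 ± 2.14 TPM in A528T and 7.74 ± 2.40 in WT, IL1B at 114 ± 32.1 and 159 ± 50.1, and TNF at 13.9 ± 7.16 and 18.98 ± 4.97 TPM (limma adjusted p = 0.527, 0.999 and 0.999), while CCL5 was at 4.51 ± 1.93 and 2.57 ± 1.75 TPM. In the phagocytosis and complement list (36 kept, 0 called) 28 were above 0, and 21 without A528T library 7; the complement protease C2 was at 15.6 ± 8.23 and 8.10 ± 2.90 TPM.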
